A study of Homo sapiens with 4 samples.

Results

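The SR proteins (symbols beginning SRSF) and the heterogeneous nuclear ribonucleoproteins (symbols beginning HNRNP) were compared between control cells and cells in which the histone demethylase LSD1, encoded by KDM1A, had been knocked down. Every such symbol other than pseudogenes and antisense genes was taken, whatever its values, which gave 37 genes, 12 SRSF and 25 HNRNP, of 22852 genes in the count tables. The cells were PC-3M-luc, derived from the androgen-independent prostate carcinoma line PC-3 and marked with luciferase, at passages 17 to 20. Both groups were transfected and harvested 72 h later. The control group had received the control RNAi and the knockdown group the RNAi against LSD1, with 2 biological replicates each, and no sequence of either RNAi reagent was used here. The design text of the series speaks of a knockout, whereas every sample label gives RNAi, and the cells are described here as a knockdown. The single line and the transient knockdown limit how far the groups stand for prostate tumours. The labels do not say whether replicates came from separate cultures, so the p-values measure the spread between these 4 libraries.

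SR proteins carry an RNA recognition motif and a tail rich in arginine and serine. They bind exonic enhancers and help U1 snRNP and U2AF to define an exon, and kinases of the SRPK and CLK families phosphorylate the tail. The hnRNP proteins coat nascent pre-mRNA, and many of them silence exons or act on polyadenylation, export and stability of the transcript. Many genes of both families also make transcripts that end early or keep a premature stop codon and are then degraded, which is how several of them limit their own level.

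A few sequences carry the comparisons described here. The alternative ends of SRSF10 are shown because the counts that separate its transcripts differed between the groups. They were read from the GENCODE 29 transcripts on GRCh38, minus strand of chromosome 1, at chr1:23971142-23971439 for the proximal last exon and at chr1:23967926-23967956 and chr1:23967663-23967723 for the distal last exon. Capitals mark the stop codon. The proximal stretch codes for the end of the arginine and serine rich tail of the longer protein.
SRSF10 proximal last exon, NM_054016: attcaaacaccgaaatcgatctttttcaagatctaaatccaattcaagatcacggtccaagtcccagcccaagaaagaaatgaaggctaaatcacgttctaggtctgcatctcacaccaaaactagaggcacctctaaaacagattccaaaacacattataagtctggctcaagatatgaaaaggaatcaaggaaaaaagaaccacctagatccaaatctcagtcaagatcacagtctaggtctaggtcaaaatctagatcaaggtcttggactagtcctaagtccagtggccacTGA
SRSF10 distal last exon, NM_001191006: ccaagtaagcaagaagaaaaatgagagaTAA
SRSF10 distal last exon, NM_006625: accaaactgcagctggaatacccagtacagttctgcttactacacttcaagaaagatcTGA

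The alternative coding exons of HNRNPAB and HNRNPD are shown because each is present in the higher and absent from the lower of a pair of count rows of its gene. The HNRNPAB exon of 141 nt lies on the plus strand at chr5:178210132-178210272 and the HNRNPD exon of 147 nt on the minus strand at chr4:82356537-82356683, both in GRCh38. No letters are marked in them.
HNRNPAB alternative coding exon: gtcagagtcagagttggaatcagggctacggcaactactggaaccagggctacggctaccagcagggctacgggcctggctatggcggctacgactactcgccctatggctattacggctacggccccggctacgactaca
HNRNPD alternative coding exon: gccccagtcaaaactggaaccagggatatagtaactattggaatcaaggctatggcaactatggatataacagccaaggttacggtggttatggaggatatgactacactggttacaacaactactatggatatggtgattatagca

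The promoters of HNRNPH2, SRSF9 and HNRNPM are shown because these genes had the highest and the 2 lowest fitted changes. Each window is from RefSeq on GRCh38 and runs from 250 bases before to 50 bases after the annotated start. Capitals mark the E-box letters CACGTG and the motif of NRF1, which has any base at its sixth place, on either strand. The windows lie at chrX:101407972-101408271 on the plus strand, chr12:120469699-120469998 on the minus strand and chr19:8444725-8445024 on the plus strand.
HNRNPH2 promoter: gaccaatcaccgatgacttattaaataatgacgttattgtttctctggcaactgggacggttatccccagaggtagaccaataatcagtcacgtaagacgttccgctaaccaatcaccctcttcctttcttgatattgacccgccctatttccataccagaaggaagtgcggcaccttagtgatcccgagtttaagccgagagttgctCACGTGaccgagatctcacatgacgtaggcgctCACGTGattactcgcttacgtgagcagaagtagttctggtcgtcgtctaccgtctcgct
SRSF9 promoter: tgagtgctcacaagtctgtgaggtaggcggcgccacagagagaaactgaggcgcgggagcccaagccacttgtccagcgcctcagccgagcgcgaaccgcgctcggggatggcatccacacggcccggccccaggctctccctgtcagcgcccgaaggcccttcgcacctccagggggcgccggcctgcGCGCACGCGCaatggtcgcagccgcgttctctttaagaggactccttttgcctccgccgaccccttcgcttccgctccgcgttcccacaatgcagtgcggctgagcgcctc
HNRNPM promoter: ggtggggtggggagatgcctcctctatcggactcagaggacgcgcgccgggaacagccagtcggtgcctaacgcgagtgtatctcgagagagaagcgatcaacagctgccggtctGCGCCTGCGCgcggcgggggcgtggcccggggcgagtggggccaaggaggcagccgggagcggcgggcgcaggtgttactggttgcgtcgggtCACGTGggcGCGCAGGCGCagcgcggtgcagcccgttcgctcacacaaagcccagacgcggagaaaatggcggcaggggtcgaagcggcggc

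Reads per RefSeq row totalled 22855909 to 24348184 per library, and with the row of highest mean count kept for each symbol, 12041283 to 12832064. KDM1A itself had 2920 and 2892 counts in control against 218 and 234 after knockdown, a log2 fold change of -3.72. Among epithelial markers, KRT8 had 2578 and 2408 counts in control against 3378 and 3718 after knockdown and EPCAM 796 and 752 against 1149 and 1096, both higher by edgeR, while KRT18 and KRT19, with 2809 to 6217 counts, did not pass. Of the mesenchymal markers VIM (13849 and 13864 against 11075 and 11493) and FN1 (194 and 214 against 119 and 129) were lower, and CDH2 did not pass. The prostate luminal genes KLK2, KLK3 and FOLH1, the leukocyte genes PTPRC and CD3E, the endothelial gene CDH5 and the erythroid gene HBB were at 0 in all 4 libraries, and TMPRSS2, VWF, DCN and HBA1 had at most 4 counts. LYZ, a leukocyte marker, had 4 and 2 counts against 17 and 13 (higher), and PECAM1, an endothelial marker, 37 and 38 against 26 and 20 (lower). Of the fibroblast collagens COL1A2 was higher, at 165 and 244 against 313 and 325 counts, and COL1A1 did not pass. The part of these marker differences in the values of the splicing genes was not tested.

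Of the 37 genes, 33 had enough counts to be tested, 11 SRSF and 22 HNRNP. HNRNPH2 rose after knockdown, 12 genes fell and 20 did not pass the threshold (edgeR quasi-likelihood test, Benjamini-Hochberg adjusted p under 0.05 over 13252 genes). Rises thus made up 3.03% of the tested members, against 18.2% of all genes tested, and falls 36.4%, against 17.9%. In direction, 27 of the 33 fitted changes were below 0, with a median log2 fold change of -0.14, against 0.0023 over all genes tested. The SRSF median was -0.067 and the HNRNP median -0.16. The changes were small: the 12 falls lay between 14.1% and 23.2%, and HNRNPH2 rose 1.53-fold. The number of falls depended on which libraries were fitted. It was lower whenever 1 library was left out, and lowest without knockdown replicate 2. The share of all genes called lower in those fits was not computed. DESeq2 called 10 members lower, where it called 12.5% of its 12413 tested genes lower.

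**Figure D1:**
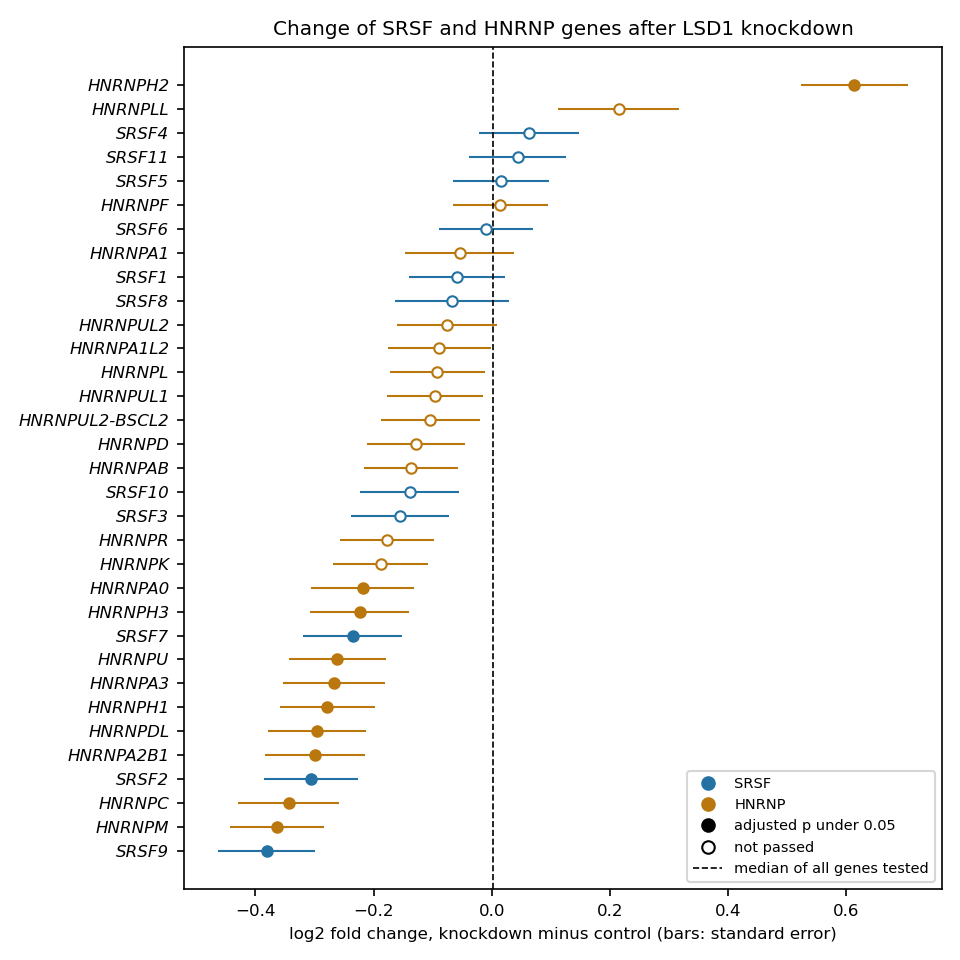
Log2 fold change of the 33 tested SRSF and HNRNP genes, knockdown minus control, with the standard error as bars. Filled points passed the edgeR threshold, open points did not, and the dashed line is the median of all genes tested; HNRNPH2 at 0.61 stands alone to the right and SRSF9 at -0.38 is the lowest.

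The 2 knockdown values lay below both control values for 21 of the 33 members and above them for 3, and the groups overlapped for 9. Over all genes tested, 33.5% had the knockdown group below and 33.7% above. Summed over the family and with the readthrough gene HNRNPUL2-BSCL2 left out, HNRNP transcripts took 6474 and 6548 CPM (counts scaled to library size) in control and 5785 and 5506 CPM after knockdown. The SRSF genes together took 2095 and 2094 CPM against 1953 and 1892 CPM. Both sums were lower in each knockdown library than in each control library. These are shares of the counted RNA of bulk cultures, in which fewer cells of a type and less RNA per cell cannot be told apart, and a permutation test of 2 libraries against 2 cannot go below 0.333.

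**Figure D2:**
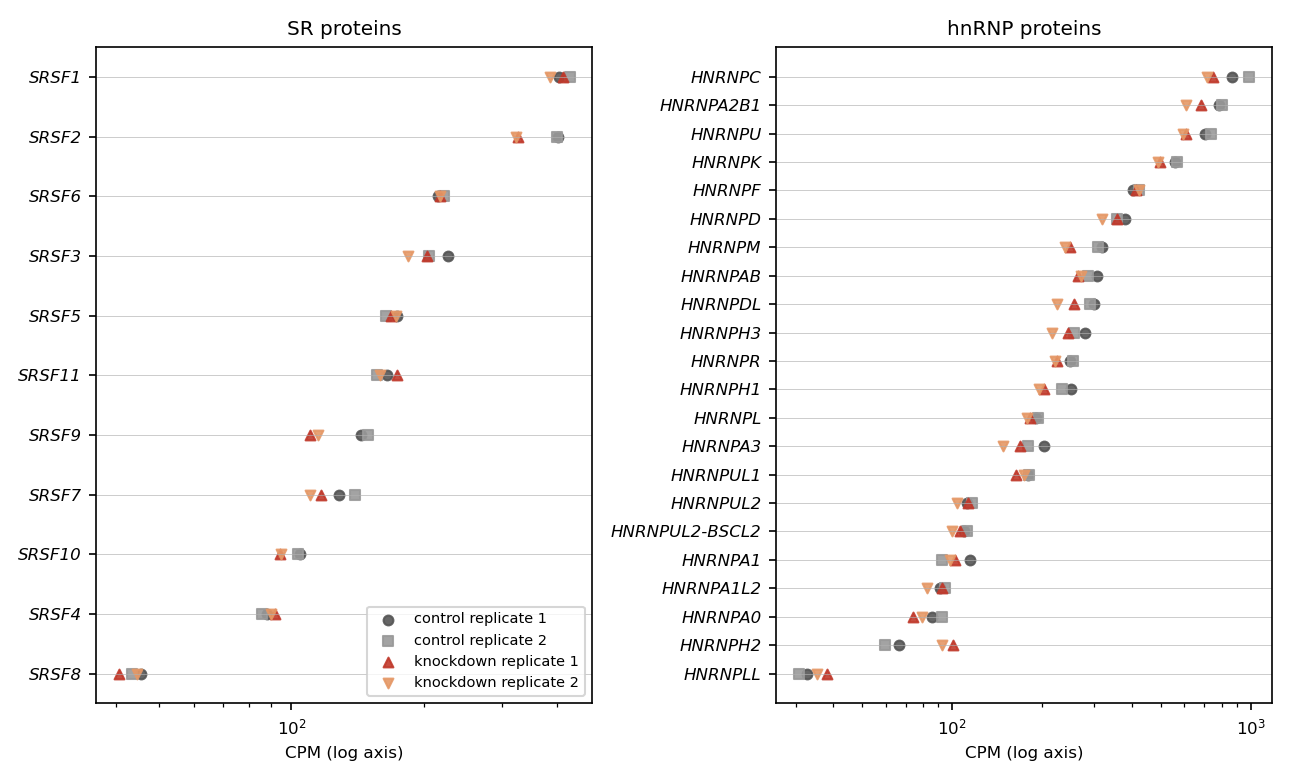
CPM on a log axis for each tested SRSF gene on the left and each tested HNRNP gene on the right, with 1 point per library (grey, control; red and orange, knockdown). Genes are ordered by their mean, and the separation of red and grey points is small beside the range of levels between genes.

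Among the SR proteins, SRSF9, SRSF2 and SRSF7 fell. No SRSF gene rose, at the adjusted threshold or at an unadjusted p under 0.05 in edgeR, and DESeq2 called 0 higher as well. SRSF9, a short-tailed SR protein that can repress as well as activate exons, had 144 and 149 CPM in control and 110.4 and 115 CPM after knockdown. The knockdown values were both below the control values, and the log2 fold change was -0.38 (SE 0.082, edgeR adjusted p = 0.000427). The promoter printed above holds the NRF1 letters from base -61. GATC, on the opposite strand, shares 1729 nt of exon with SRSF9 in GENCODE 29 and had the higher mean count, 2144 against 1608. Whether the counting used strand is not given in the sources used here, so reads of the pair cannot be told apart, and the log2 fold change on the GATC row was -0.052 (edgeR adjusted p = 0.658).

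SRSF2, which recognises exonic enhancers and resides in nuclear speckles, had 402 and 399 CPM in control against 326 and 322 CPM after knockdown. The groups did not overlap, and the log2 fold change was -0.31 (SE 0.080, edgeR adjusted p = 0.00275). MFSD11 overlaps SRSF2 by 1106 nt on the opposite strand, and its counts were 1248 and 1167 against 945 and 964, a log2 fold change of -0.37 (edgeR adjusted p = 0.000855). With strand use not given, reads of SRSF2 and MFSD11 on the shared stretch cannot be told apart either. SRSF7, which also takes part in mRNA export, had 128 and 139 CPM in control and 117 and 110.3 CPM after knockdown. Its groups did not overlap, and the log2 fold change was -0.24 (SE 0.084, edgeR adjusted p = 0.0270). SRSF7 missed the threshold with control replicate 2 left out (adjusted p = 0.234) and with knockdown replicate 2 left out (adjusted p = 0.153).

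The other 8 tested SRSF genes did not pass. SRSF3, a regulator of splicing, export and polyadenylation, stood at -0.16 and SRSF10 at -0.14, both with the knockdown libraries below the controls. SRSF8 and SRSF1, the best studied activator of exon inclusion, were at -0.067 and -0.059, and SRSF6 at -0.010. SRSF5, SRSF11 and SRSF4 lay above 0, at 0.016, 0.045 and 0.063. SRSF4 was the only SRSF gene with both knockdown libraries above both controls, at 87.8 and 85.7 CPM against 91.6 and 89.7 CPM. SRSF12 had 9, 7, 7 and 5 counts, too few to test.

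In the G-tract binding group, HNRNPH2 rose while its paralogs HNRNPH1 and HNRNPH3 fell. These proteins bind runs of G near splice sites and polyadenylation sites. HNRNPH2 had 66.5 and 59.8 CPM in control and 101 and 92.5 CPM after knockdown. Both knockdown values lay above both controls, and the log2 fold change was 0.61 (SE 0.090, edgeR adjusted p = 1.99e-06). HNRNPH1 had 249.8 and 234 CPM against 203 and 196 CPM, a log2 fold change of -0.28 (SE 0.081, edgeR adjusted p = 0.00680). HNRNPH3 had 279.8 and 257 CPM against 244 and 216 CPM, a log2 fold change of -0.22 (SE 0.084, edgeR adjusted p = 0.0355). Neither pair of groups overlapped. HNRNPF, the fourth member of the group, had 404 and 422 CPM against 413 and 422 CPM and did not pass.

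Per kilobase of transcript, HNRNPH2 made up 21.2% and 20.5% of the sum of HNRNPH1 and HNRNPH2 in control and 33.5% and 32.3% after knockdown. HNRNPH1 was therefore still the more abundant transcript in all 4 libraries. HNRNPH2 lies on the X chromosome, and its promoter above holds the E-box letters at -42 and at -9. The readthrough RPL36A-HNRNPH2 shares 362 nt of exon with HNRNPH2 and had 873 and 777 counts against 1230 and 1199, a log2 fold change of 0.53 (edgeR adjusted p = 1.84e-05). HNRNPH2 itself had 826 and 727 counts against 1234 and 1197, close to the readthrough in every library. The 2 symbols may therefore count largely the same reads, and their rises are not separate observations. Reads on the shared exons cannot be assigned to either. The neighbouring gene RPL36A was at -0.41 and did not pass (edgeR adjusted p = 0.107), and GLA, also nearby, fell with a log2 fold change of -0.48 (edgeR adjusted p = 0.000972). Without knockdown replicate 2, the adjusted p of HNRNPH3 was 0.340, and without control replicate 1 it was 0.256, while that of HNRNPH1 was then 0.0841. The HNRNPH2 call held in every setting that was run, with a log2 fold change between 0.54 and 0.69.

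The A/B group of hnRNP proteins, which bind AG-rich RNA and act as exon silencers, had with their relatives HNRNPAB, HNRNPD and HNRNPDL 4 falls among 8 tested genes, a grouping made for description, where 17.9% of all genes fell. HNRNPA2B1, also known for RNA trafficking, had 787 and 799 CPM in control and 683 and 606 CPM after knockdown. Its log2 fold change was -0.30 (SE 0.084, edgeR adjusted p = 0.00537). CBX3 shares 368 nt of exon with HNRNPA2B1 on the opposite strand and was at -0.17 (edgeR adjusted p = 0.171). Reads on that stretch cannot be told apart. HNRNPDL, a relative of HNRNPD, had 299 and 290.2 CPM against 256 and 225 CPM, with a log2 fold change of -0.30 (SE 0.083, edgeR adjusted p = 0.00526). The knockdown values of HNRNPA2B1 and HNRNPDL lay below the control values, and knockdown replicate 2 was the lowest of the 4 libraries. Without it the adjusted p was 0.141 for HNRNPA2B1 and 0.126 for HNRNPDL.

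HNRNPA3 had 203 and 179 CPM in control and 169.7 and 148 CPM after knockdown, a log2 fold change of -0.27 (SE 0.086, edgeR adjusted p = 0.0148). HNRNPA0, a gene without introns whose protein binds AU-rich mRNA, had 86.0 and 93.0 CPM against 74.4 and 79.4 CPM, a log2 fold change of -0.22 (SE 0.087, edgeR adjusted p = 0.0492). The groups of both genes did not overlap, but each control and knockdown pair was itself spread. The adjusted p of HNRNPA3 was 0.214 without control replicate 1 and also 0.214 without knockdown replicate 2. HNRNPA0 missed the threshold whichever library was left out, with adjusted p of 0.0543, 0.305, 0.211 and 0.0513.

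HNRNPA1, the best known exon silencer, had 115 and 93 CPM in control and 102 and 98.5 CPM after knockdown, and the groups overlapped. Its retrocopies HNRNPA1L2 and HNRNPA1P10 are near-identical in sequence, so how its reads were divided is uncertain. HNRNPA1L2 was at -0.089 and the pseudogene HNRNPA1P10 at 0.021, and neither passed. HNRNPAB and HNRNPD, which bind AU-rich elements, were at -0.14 and -0.13 and did not pass, although both had the knockdown libraries below the controls.

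HNRNPC, HNRNPM and HNRNPU, which belong to no common subgroup, also fell. HNRNPC, which measures and packages nascent RNA and binds uridine tracts, had 864 and 991 CPM in control and 749 and 712 CPM after knockdown. The groups did not overlap, and the log2 fold change was -0.34 (SE 0.086, edgeR adjusted p = 0.00187). The controls were spread, and without control replicate 2 the adjusted p was 0.0528. HNRNPM, a regulator of exon choice in epithelial to mesenchymal transition, had 318 and 309 CPM against 248 and 239 CPM. Its knockdown values were well apart from the controls, with a log2 fold change of -0.36 (SE 0.080, edgeR adjusted p = 0.000513), and its promoter above holds the E-box letters at -42 and the NRF1 letters at -135 and -33. HNRNPU, the scaffold attachment factor, had 702 and 738 CPM against 607 and 595 CPM, a log2 fold change of -0.26 (SE 0.082, edgeR adjusted p = 0.0118). COX20 overlaps HNRNPU by 3502 nt on the opposite strand and was at -0.058 (edgeR adjusted p = 0.658). Reads on that stretch cannot be told apart, with strand use not given. Without control replicate 2 the adjusted p of HNRNPU was 0.0762, and without knockdown replicate 2 it was 0.0797.

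HNRNPK, a KH-domain protein that binds poly(C), came closest among those that missed the threshold. It had 556 and 568 CPM in control and 497 and 489.9 CPM after knockdown, a log2 fold change of -0.19 (SE 0.081, edgeR adjusted p = 0.0673). DESeq2 gave it an adjusted p of 0.0429. HNRNPR was at -0.18 (edgeR adjusted p = 0.0793), and both of these genes had separate groups. HNRNPLL, known for CD45 splicing in T cells, stood at 0.22, with 32.7 and 30.7 CPM against 38.1 and 35.5 CPM, and did not pass (edgeR adjusted p = 0.100). HNRNPL, HNRNPUL1 and HNRNPUL2 lay between -0.096 and -0.075. HNRNPUL2-BSCL2, at -0.10, shares 2391 nt with HNRNPUL2, and reads there cannot be assigned to either. HNRNPCL1, HNRNPCL2 and HNRNPCL3, copies of HNRNPC, had 0 counts in every library, where 3 counts equal 0.232 to 0.247 CPM.

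The level of each gene was set per kilobase of the longest GENCODE 29 transcript matched to its kept row, which 32 of the expressed members had. In the control libraries HNRNPC was highest at 520 CPM per kb, followed by HNRNPA2B1 at 216, SRSF3 at 196, HNRNPK at 191, HNRNPF at 189 and HNRNPAB at 164. SRSF3, HNRNPK and HNRNPF overlapped between control libraries and have no order among them. The kept row of SRSF3 is non-coding and 1095 nt long, while its coding row has 3583 nt of its own and a similar mean count (2395 against 2536). The level and place of SRSF3 therefore rest on that short length. The same holds for SRSF6, set on 1680 nt where the coding row has 2913 nt of its own. The lowest levels were those of SRSF8 at 11.1, HNRNPA0 at 10.3, HNRNPLL at 7.60 and SRSF12 at 0.181 CPM per kb. HNRNPA0 was set on 8726 nt, and its place rests on that length: before scaling it had 89.5 CPM in control, above SRSF8 at 44.6 CPM. Of the 31 neighbouring pairs in the order, 12 overlapped. HNRNPH2 had 28.4 CPM per kb in control and 43.5 after knockdown, while SRSF4, just above it in control, had 36.3. SRSF11 and HNRNPA3 had no matched length.

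Promoter windows, 48 in all, were found in RefSeq for 34 of the 37 genes. On both strands, the E-box letters CACGTG occurred in 8 of these 48 windows (7 members). They occurred in 7.26% of the 35116 windows of all genes outside chromosome 8, which was left out of the count. The NRF1 motif occurred in 6 member windows and in 5.78% of all windows. The letters CCAAT occurred in 25 member windows (34.6% of all), TGACGT in 6 (7.98%), CCGGAAG in 5 (10.3%) and TATAAA in 6 (11.5%). HNRNPH2, which rose, shares the E-box letters with HNRNPM, HNRNPDL, HNRNPA3 and HNRNPH3, which fell, and HNRNPD and HNRNPUL1, which did not pass. NRF1 letters occurred in SRSF9, HNRNPM, HNRNPH1 and HNRNPH3, which fell, and in SRSF1 and SRSF10, which did not pass. A match describes the letters only.

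The count tables list several RefSeq transcripts for 25 of the members, 81 rows in all, of which 77 were tested on their own. In this fit 2 rows rose, both of HNRNPH2, and 25 fell, where 18.6% of all 23652 rows rose and 19.2% fell. Rows of a gene share most of their reads. HNRNPK was the only member whose rows differed in call, with NM_031263 lower (edgeR adjusted p = 0.0445) and the rows NM_002140 and NM_031262 just short of the threshold. Fewer member rows fell without control replicate 1, without control replicate 2 and, fewest of all, without knockdown replicate 2. The widest span of log2 fold changes between rows of a gene was that of SRSF10, 0.14, followed by HNRNPAB at 0.11, HNRNPD at 0.031, SRSF6 at 0.028 and SRSF2 at 0.023.

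To see what separates the rows, the count of a second row was subtracted from that of the highest row, and the difference was tested relative to the second row. The difference is net where each row has exons of its own. Of 37 such pairs over 21 members, 2 were called lower and 0 higher by edgeR, and 10 (27.0%) had an unadjusted p under 0.05. Pairs of a gene share their highest row and are not independent, so the shares of pairs are descriptive only. The 10 pairs were of SRSF10, HNRNPD, HNRNPAB, HNRNPC and SRSF1, with several each from SRSF10 and HNRNPD. Over all 6020 pairs, 0.382% were called lower and 11.5% had an unadjusted p under 0.05. As a share of the highest row, the difference lay with both knockdown libraries above both controls for 12 member pairs and below them for 11, against 17.8% and 25.1% of all pairs. Both calls were of SRSF10. NM_001191006, with the distal last exon, exceeded NM_054016, with the proximal last exon, by 210 and 176 counts in control and by 77 and 74 after knockdown. The difference was 16.2% and 14.0% of the NM_001191006 count in control and 6.69% and 6.04% after knockdown, so the groups did not overlap.

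The log2 fold change of that difference was -1.39 (SE 0.215, edgeR adjusted p = 0.0266). Against NM_001191005, which uses the proximal exon as well, it was also -1.39 (edgeR adjusted p = 0.0260), and these pairs share their reads. The row NM_001191006 itself was at -0.15 and NM_054016 at -0.0075, and neither row passed on its own. Without control replicate 2 no pair was called, with adjusted p of 0.0558 and 0.0575. The tables hold no counts per exon, so which exon gave the difference was not tested.

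**Figure D3:**
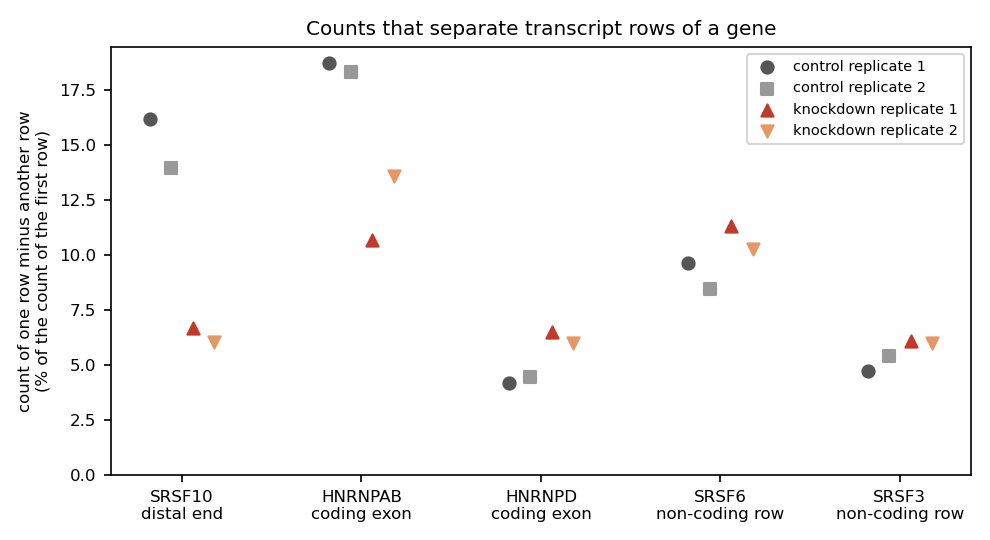
Count of the highest RefSeq row minus that of another row, as a percentage of the highest row, for 5 members and with 1 point per library. SRSF10 and HNRNPAB have the knockdown points below the control points and HNRNPD, SRSF6 and SRSF3 above them; only the SRSF10 difference passed the threshold.

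HNRNPAB, whose longer row holds 194 nt that the other lacks, the 141 nt exon among them, also had the knockdown libraries below the controls. NM_031266 exceeded NM_004499 by 710 and 634 counts in control and by 347 and 478 after knockdown, a log2 fold change of -0.71 that did not pass (SE 0.187, edgeR adjusted p = 0.137). For HNRNPD the knockdown libraries lay above the controls. NM_031370, which holds 1478 nt that NM_002138 lacks, the 147 nt exon among them, while NM_002138 has 30 nt of its own, exceeded it by 198 and 194 counts in control and by 284 and 248 after knockdown, a log2 fold change of 0.56 that did not pass (edgeR adjusted p = 0.236). Neither pair of groups overlapped.

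Of the member pairs, 7 compare a coding with a non-coding row, and none of these passed in edgeR, although 1 had an unadjusted p under 0.05. In them the knockdown libraries lay above the controls in 4, below in 1 and overlapped in 2, against 17.8% above and 25.1% below over all pairs. The difference is non-coding minus coding for SRSF6, SRSF3 and HNRNPDL, and coding minus non-coding for SRSF2, SRSF1 and SRSF10. These counts therefore give no direction for the non-coding rows. For SRSF6 the non-coding row NR_034009 has 268 nt of its own and the coding row NM_006275 has 2913 nt of its own in GENCODE 29. The former exceeded the latter by 257 and 228 counts in control and by 300 and 289 after knockdown, with a log2 fold change of 0.29 (edgeR adjusted p = 0.581). For SRSF3 NR_036610 has 456 nt of its own and NM_003017 has 3583, and the difference was 132 and 135 counts against 151 and 143, with a log2 fold change of 0.27 (edgeR adjusted p = 0.671). The SRSF10 pair with the non-coding NR_034035 lay below, at 45 and 43 counts against 11 and 15 (log2 fold change -1.69, edgeR adjusted p = 0.0606), and the SRSF1 pair with NR_034041 overlapped, at 762 and 689 counts against 786 and 633. Between coding rows of SRSF1, NM_001078166 exceeded NM_006924 by 67 and 72 counts against 100 and 102, with a log2 fold change of 0.58 (edgeR adjusted p = 0.329). The 3 rows of SRSF2 fell alike, at -0.34, -0.32 and -0.34, with edgeR adjusted p of 0.000524, 0.00109 and 0.000485 for NM_001195427, NM_003016 and the non-coding NR_036608.

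The rest of the splicing machinery was described from 8 lists of 139 genes, of which 130 were tested. In them 12 genes rose and 30 fell, 9.23% and 23.1% of those tested, against 18.2% and 17.9% of all genes, with a median log2 fold change of -0.024. Fewer fell whenever 1 library was left out, and fewest without control replicate 2. The Sm and LSm proteins, which form the rings of the snRNPs, had 8 falls of 15 tested and a median of -0.36. None of them rose in edgeR, at an unadjusted p under 0.05 or in DESeq2, with 0 in each, and DESeq2 called 6 lower. SNRPD2, counted among the 8, had 195 and 360.4 CPM in control against 190.5 and 206 CPM, so its groups overlapped. Without control replicate 2 its log2 fold change was 0.021 (edgeR adjusted p = 0.910). The U1 and U2 snRNP and U2AF proteins had 8 falls and 1 rise of 18, the hnRNP proteins under other symbols 5 falls and 4 rises of 19, and the U4/U6.U5 proteins 3 falls and 1 rise of 17 (17.6% fell, near the share of all genes). The kinases and importers of SR proteins had 3 falls and 1 rise of 11, and the SR-related coactivators 1 fall of 18.

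**Figure D4:**
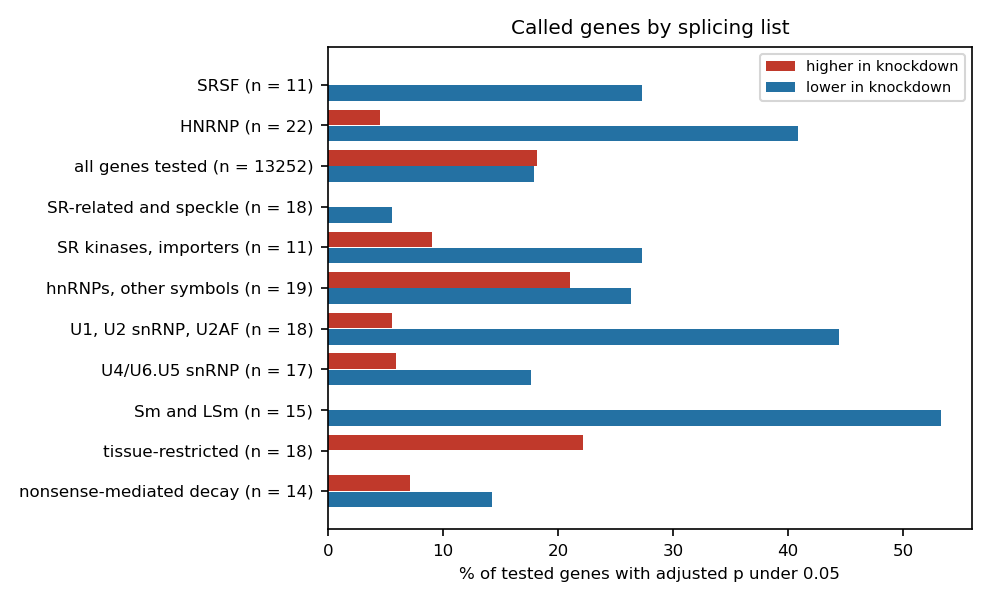
Percentage of tested genes that rose (red) or fell (blue) at the edgeR threshold in the SRSF genes, the HNRNP genes, all genes tested and 8 further splicing lists, with the number tested in brackets. Sm and LSm proteins have the highest blue bar at 53.3% and the list labelled tissue-restricted has the highest red bar at 22.2%.

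SR proteins depend on their kinases and importers for nuclear entry. SRPK2, an SR protein kinase, had 52.9 and 53.8 CPM in control and 39.7 and 41.1 CPM after knockdown (log2 fold change -0.40, edgeR adjusted p = 0.000995). TNPO3, the importer of phosphorylated SR proteins, had 176 and 186 CPM against 156 and 151 CPM (log2 fold change -0.24, edgeR adjusted p = 0.0188). TNPO2, an importin of the transportin family that carries hnRNP proteins, rose from 176 and 197 CPM to 310.4 and 334 CPM (log2 fold change 0.79, edgeR adjusted p = 5.37e-09). The groups of none of the 3 overlapped. LUC7L, a U1 snRNP cofactor, fell with a log2 fold change of -0.46 (edgeR adjusted p = 0.00153).

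Among hnRNP-like proteins of other names, the paraspeckle protein NONO rose from 289.6 and 306 CPM to 630.4 and 645 CPM (log2 fold change 1.10, edgeR adjusted p = 2.94e-12). TAF15 and PTBP1, the pyrimidine tract binding repressor of exons, fell with log2 fold changes of -0.48 and -0.45 (edgeR adjusted p = 2.59e-05 and 3.38e-05). In the U2 snRNP, SF3B6 and SF3A3 fell (-0.86 and -0.48) and SF3B5 rose (1.53). In the Sm and LSm rings LSM4, LSM8 and SNRPD3 fell (-0.82, -0.67 and -0.54). In the tri-snRNP DDX23 and SART1 fell and USP39 rose, all by less than 0.3 on the log2 scale.

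Of 18 genes tested in the list labelled tissue-restricted splicing regulators, 4 rose (22.2%, against 18.2% of all genes) and 0 fell in edgeR. At an unadjusted p under 0.05 in edgeR 1 was lower, and 0 fell in DESeq2. The label was not checked against tissue data, and RBM25 and RBM39 in the list averaged 301 and 234 CPM in these cells. ESRP1, the epithelial splicing regulator, had 2.66 and 3.62 CPM in control and 16.2 and 15.5 CPM after knockdown (log2 fold change 2.34). RBM47 and RBM4 rose as well, at 1.20 and 0.36. Nonsense-mediated decay removes transcripts with premature stop codons. Of 14 of its factors UPF1 rose (0.68), MAGOH and EIF4A3 of the exon junction complex fell (-0.61 and -0.22), and 11 did not pass. These were 7.14% higher and 14.3% lower, below the 18.2% and 17.9% of all genes. These named genes are the called genes of each list with the smallest adjusted p, at most 3 per list.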

How the data were processed

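The 4 libraries were made from total RNA, per the labels' protocols. The deposited tables give raw counts per RefSeq transcript, made by the authors. The submitters' processing notes name TopHat2, HOMER, edgeR, DESeq 1.8.3 and hg19 without a role for each. Counting options, strand among them, were not stated there.

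Rows were named through the RefSeq gene table on GRCh38.p14 and GENCODE 29. Of 38767 rows, 37205 were named by the first, 472 by the second and 1090 by neither, which held 1.38% to 1.40% of counts and were left out. The row with the highest mean count stood for each symbol. Genes passing filterByExpr (minimum count 10, minimum total 15) were fitted with edgeR 4.0.16 in R 4.3.3 (TMM, quasi-likelihood test, no covariate) and adjusted by Benjamini-Hochberg over all 13252. The biological coefficient of variation was 5.96%. Rows were fitted alike. Row differences were fitted with the log count of the second row as offset and without TMM. Pairs were kept only with at least 10 counts in the second row and a difference that was not negative, in every library. DESeq2 1.42.0 and limma 3.58.1 gave alternatives. The 2 replicates of a group were distinct libraries: the chi-square of their counts, per gene, was 4.79 in control and 4.12 after knockdown.

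On simulated data of 13140 genes for the comparison of knockdown with control, the gene fit recovered 83.6% of planted 1.5-fold, 92.5% of 2-fold and 100% of 4-fold changes. Named genes were all members, KDM1A, up to 3 called genes per further list and the rows of the 5 members with the widest span. Neighbouring and overlapping genes, and the rows of SRSF1, SRSF3 and HNRNPK, were added after values were seen. The members, lists and comparisons were chosen with earlier results of these data known. The row differences were chosen after seeing the data. Of the list symbols, HNRPLL and HNRPDL are older names of members and were not counted again.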

Additional observations from a re-analysis of the deposited data

How the results depend on the processing

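Of the 13 members called, 4 (HNRNPH2, HNRNPM, SRSF2 and SRSF9) kept direction and call in all 13 settings run, and the other 9 kept their direction. Of these, HNRNPA0, HNRNPH3 and SRSF7 were lost with DESeq2 and without a normalization factor, and HNRNPA0 and HNRNPH3 without a filter on low counts. The members called lower numbered 9 without a normalization factor, 10 without a filter and 11 with counts summed over rows. They numbered 12 with limma-voom, with DESeq2 size factors, with a filter of 1 CPM and with coding rows only. In each, 1 member was called higher. The share of all genes called in these fits was not computed. Leaving out 1 library gave 5 to 11 members lower, 12 to 26 member rows lower, 18 to 27 genes of the further lists lower and 0 to 3 row differences lower. In alternatives chosen after seeing the data, members were left out that share at least 200 nt of exon with any gene annotated in GENCODE 29, or reads with a near-identical copy: 18 tested members stayed, 0 higher and 7 lower. With overlaps counted only where the other gene is in the tables, 23 stayed, 0 higher and 8 lower. HNRNPH2, SRSF2 and SRSF9 are left out in both, and HNRNPM in the first. None of the 4 members that kept the call in all 13 settings is thus among the 18. Both alternatives use the main fit, in which 17.9% of all genes fell.

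Some changes near 0 turned sign in members that passed in no fit. Leaving out 1 library gave -0.20 to 0.11 for HNRNPA1 (the last without control replicate 1), -0.018 to 0.045 for HNRNPF (negative without control replicate 1), -0.027 to 0.11 for SRSF11 (negative without knockdown replicate 1), -0.025 to 0.055 for SRSF5 (negative without control replicate 2, and -0.00058 without knockdown replicate 2) and -0.036 to 0.013 for SRSF6 (positive without control replicate 2). SRSF6 was at 0.025 without a normalization factor. The cause was not tested.

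The deviations of same-numbered libraries correlated at 0.091 across genes, and the labels name no shared batch. Whether the replicate numbers pair libraries is not known, and 2 libraries per group cannot settle it. With the replicate number as a block, 1 member was called higher and 14 lower, with HNRNPK (adjusted p = 0.0346) and HNRNPR (adjusted p = 0.0442) added by edgeR, and 2 member rows were higher and 32 lower. The block gave 14 higher and 31 lower genes in the further lists, and 2 row differences lower. The share of all genes called with the block was not computed. Planted changes under 1.5-fold were not simulated, and the tested members other than HNRNPH2 changed by less than that.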
